A study of Mus musculus with 6 samples.

Results

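Simple keratins, desmosomal genes and Perp were compared between Med23 knockout and wild-type mouse embryonic stem (ES) cells. The 10 genes were Krt7, Krt8, Krt18, Krt19, Perp, Dsp, Jup, Pkp2, Dsg2 and Dsc2, out of 18193 genes measured. They were chosen by name, as genes of the simple-epithelium cytoskeleton and of the desmosome, with earlier results of these data known, so their counts describe a chosen set. Every probe set that the platform annotation assigns to 1 of them alone was used, 23 in all. Both groups were ES cells of the 129SV strain, labelled MED23 knockout or wildtype for genotype, with 3 arrays per group described as biological replicates. Both were given fresh complete ES medium for 24 hours and then lysed in Trizol. Whether a group came from 1 clone or several, how the knockout was made and whether feeder cells were present are not given in the labels.

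Keratins are the intermediate filament proteins of epithelial cells. Each filament is built from pairs of 1 type I and 1 type II chain. In simple epithelia Krt8 and Krt7 supply the type II chain, and Krt18 and Krt19 the type I chain. In the mouse embryo, Krt8 and Krt18 are the first keratins made, in trophectoderm and extraembryonic endoderm, while undifferentiated ES cells make little keratin filament. Desmosomes anchor these filaments at cell contacts. The desmosomal cadherins Dsg2 and Dsc2 span the membrane, plakoglobin (Jup) and plakophilin 2 (Pkp2) bind their tails, and desmoplakin (Dsp) links the plaque to keratin. Perp is a tetraspan membrane protein, first known as a p53 target in apoptosis and later found in desmosomes.

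All 4 simple keratin genes, Perp and Dsp were at least 2-fold lower in knockout cells, Dsg2 was lower by less, and Jup, Pkp2 and Dsc2 did not pass the test. In numbers, 7 of the 10 genes fell and 0 rose at an adjusted p under 0.05 (limma, Benjamini-Hochberg adjustment over all 45037 probe sets), against 10.4% of all genes lower and 8.53% higher. At an unadjusted p under 0.05 in limma, 9 were lower and still 0 higher. The share of all genes at this looser cut was not counted, and the 10.4% does not apply to it. At least 2-fold falls were found for 6 of the 10 genes, against 1.93% of all genes. The median log2 fold change, knockout minus wild type, was -1.47 over the 10 genes, -2.22 over the 4 keratins and -0.22 over the 5 desmosomal genes, beside 0.02 over all genes. Values are the deposited log2 expression values. Where a gene had several probe sets, the one with the highest mean over the 6 arrays, called its main probe set, stood for it. These are bulk arrays, so fewer cells that make a transcript and less of that transcript per cell cannot be told apart.

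**Figure D1:**
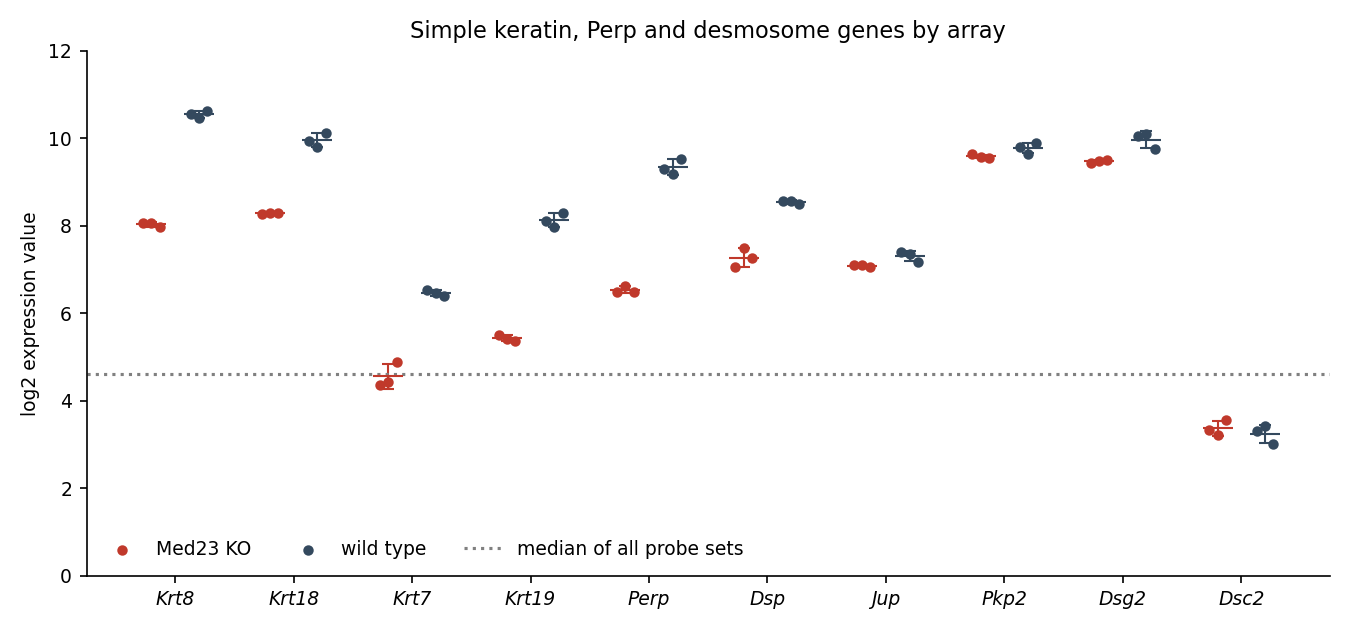
Log2 expression values (vertical axis) of the main probe set of each of the 10 genes (horizontal axis) on the 3 Med23 KO arrays (red) and the 3 wild-type arrays (dark blue); crosses give the mean and bars the SD, and the dotted line is the median of all probe sets, 4.62. Red and dark blue points are far apart for the keratins, Perp and Dsp, close together for Jup, Pkp2 and Dsg2, and mixed for Dsc2, which lies below the dotted line.

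The arrays themselves were close in distribution, with medians between 4.61 and 4.64. The targeted gene was checked first. Med23 averaged 7.37 ± 0.04 in knockout arrays and 8.88 ± 0.05 in wild-type arrays (SD, n = 3 each), which is -1.52 on the log2 scale (SE 0.06; limma, adjusted p = 2.69e-05). The labels do not say which part of the gene was removed, so whether this probe set reads it is unknown. Wild-type replicate 1 differed from its group: relative to the mean of replicates 2 and 3, 752 of its probe sets were 2-fold or more lower and 1 was 2-fold or more higher. Of 10 ES cell markers, 2 fell and none rose past the test, beside 10.4% of all genes lower and 8.53% higher. At an unadjusted p under 0.05 in limma, 2 were higher, Nanog (0.23) and Esrrb (0.37). Those that fell were Fgf4 (log2 fold change -0.37, limma adjusted p = 0.0214) and the Nodal co-receptor gene Tdgf1 (-0.28, 0.0454), and both calls ended with a replicate block (0.0675 and 0.0878) and without any single knockout array or wild-type replicate 2, that of Tdgf1 also without wild-type replicate 1 and with median centring. The pluripotency factor genes Pou5f1, Nanog and Sox2 had means between 11.5 and 13.0 in both groups, far above the all-probe-set median. Precision is limited by there being 3 arrays per group.

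Krt7, Krt8 and Krt18 lie in the same keratin gene cluster on chromosome 15, and Krt8 and Krt18 are the partner chains that fell together. Their promoter windows are shown for this reason, beside that of Dsp, the desmosomal plaque gene that fell furthest. Each window runs from 250 bases before to 50 bases after the annotated gene start, 5′ to 3′ on the gene's own strand, from RefSeq (GRCm38.p6). Promoters of 5 of the 10 genes matched the table. Capitals mark every match, on either strand, to 7 short motifs: the TATA box motif TATAAA, the AP-1 motif TGANTCA, the GC box motif GGGCGG, the EGR motif GCGNGGGCG, the ETS motif CCGGAA, the GATA factor motif AGATAA and the grainyhead motif AACCNGTT. Krt8 is at chr15:102004293-102004592 on the minus strand, Krt18 at chr15:102027966-102028265 and Krt7 at chr15:101412153-101412452, both on the plus strand, and Dsp at chr13:38151044-38151343 on the plus strand.
Krt8: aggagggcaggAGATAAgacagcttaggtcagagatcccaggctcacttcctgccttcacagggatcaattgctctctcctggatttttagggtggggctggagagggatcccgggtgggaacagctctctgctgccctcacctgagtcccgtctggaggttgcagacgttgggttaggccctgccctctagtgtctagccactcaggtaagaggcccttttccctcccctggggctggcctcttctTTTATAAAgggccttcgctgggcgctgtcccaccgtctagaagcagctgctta
Krt18: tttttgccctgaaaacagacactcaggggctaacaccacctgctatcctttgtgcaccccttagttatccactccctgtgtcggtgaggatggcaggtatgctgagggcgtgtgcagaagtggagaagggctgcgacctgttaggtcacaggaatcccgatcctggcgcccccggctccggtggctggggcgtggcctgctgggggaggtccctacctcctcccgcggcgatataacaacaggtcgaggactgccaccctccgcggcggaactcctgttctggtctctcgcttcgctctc
Krt7: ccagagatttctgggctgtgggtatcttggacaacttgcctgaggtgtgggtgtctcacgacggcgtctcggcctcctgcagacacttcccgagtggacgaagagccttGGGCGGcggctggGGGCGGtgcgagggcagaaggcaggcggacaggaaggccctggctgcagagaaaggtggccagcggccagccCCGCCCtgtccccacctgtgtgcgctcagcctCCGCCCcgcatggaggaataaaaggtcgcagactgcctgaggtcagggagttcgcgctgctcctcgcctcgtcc
Dsp: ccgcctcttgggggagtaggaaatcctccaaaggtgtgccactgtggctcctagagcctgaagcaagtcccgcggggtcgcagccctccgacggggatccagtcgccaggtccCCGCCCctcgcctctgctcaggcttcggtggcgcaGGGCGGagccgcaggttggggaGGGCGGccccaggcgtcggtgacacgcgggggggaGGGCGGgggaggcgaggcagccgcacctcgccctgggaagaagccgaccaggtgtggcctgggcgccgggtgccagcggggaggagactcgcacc

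The Krt8 window held a TATA box match whose first base is at -1 from the annotated start, overlapped by the same motif on the other strand with its first base at -3, and a GATA match at -239. The Krt18 window held none of the 7 motifs. Krt7 held 4 GC box matches, at -141, -128, -56 and -24, and Dsp also held 4, at -137, -102, -80 and -45. The window of Jup, which did not pass the expression test, held 2 GC box matches. Among 32851 promoter windows of the same length, 13.6% held the TATA box motif, 35.7% the GC box, 11.2% the GATA motif, 7.81% the AP-1 motif, 14.9% the ETS motif, 5.55% the EGR motif and 2.09% the grainyhead motif. The windows of the 3 chromosome 15 keratin genes thus shared none of the 7 motifs. A match is a run of letters and not a measured binding site, and a missing match says only that these letters are not in the window.

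Among the type II keratins, Krt8 (main probe set 1420647_a_at) was 8.07, 8.06 and 7.97 in knockout replicates 1, 2 and 3, against 10.55, 10.47 and 10.63 in wild-type replicates 1, 2 and 3. All knockout arrays were far below all wild-type arrays, with a gap of 2.40 (log2) between the highest knockout and the lowest wild-type value. The change was -2.52 on the log2 scale (SE 0.07; limma adjusted p = 1.08e-05), or 5.73-fold lower (95% interval 5.11 to 6.43). The other 2 Krt8 probe sets, whose suffix x marks probes that can also match other transcripts, gave -2.52 and -2.41. All 3 probe sets thus gave nearly the same change. Krt7 (1423952_a_at), the type II keratin of ducts and other simple epithelia, was 4.35, 4.43 and 4.88 in knockout arrays and 6.54, 6.47 and 6.40 in wild-type arrays. Its groups did not overlap, and knockout replicate 3 was the highest of its group. The change was -1.91 (SE 0.14, limma adjusted p = 0.00023). The Krt7 knockout mean of 4.56 lay under the all-probe-set median, so the size of this fall is uncertain.

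Among the type I keratins, Krt18 (1448169_at), the usual partner of Krt8, was 8.26, 8.29 and 8.29 in knockout arrays, against 9.94, 9.79 and 10.12 in wild-type arrays. The knockout arrays were almost identical, with an SD of 0.02, and the wild-type arrays had an SD of 0.16. The change was -1.67 on the log2 scale (SE 0.09; limma adjusted p = 6.96e-05), or 3.18-fold lower (95% interval 2.75 to 3.69). Krt19 (1417156_at), the smallest keratin and one that lacks most of the tail domain, was 5.51, 5.41 and 5.37 in knockout arrays, against 8.11, 7.97 and 8.29 in wild-type arrays. No array of one group came near the other, with a gap of 2.46. Its change was -2.69 (SE 0.09, limma adjusted p = 1.84e-05), or 6.47-fold lower (95% interval 5.54 to 7.56). It had the largest fall of the 4 keratins, and was number 22 of 18193 genes when ordered from the lowest log2 fold change, beside number 28 for Krt8, 72 for Krt7 and 105 for Krt18.

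Perp (1416271_at), the desmosomal tetraspan protein gene, fell furthest of the 10. It was 6.49, 6.63 and 6.50 in knockout arrays, against 9.30, 9.18 and 9.54 in wild-type arrays. The lowest wild-type value was 2.55 above the highest knockout value. The change was -2.80 on the log2 scale (SE 0.10; limma adjusted p = 1.92e-05), or 6.96-fold lower (95% interval 5.89 to 8.23), number 14 of 18193 genes from the lowest. Krt18, Krt19, Perp and the main probe set of Krt8 had the same order among wild-type arrays: each was highest in replicate 3 and lowest in replicate 2. This order was not confined to genes that fell. Pkp2, which did not pass, also had it (9.81, 9.65 and 9.88 in replicates 1, 2 and 3), and Krt7, Dsp and Dsg2 did not. Wild-type replicate 1, which differed from its group over many probe sets, was in the middle for Krt8, Krt18, Krt19 and Perp. In the fit without it, the changes were -2.52 for Krt8, -1.68 for Krt18, -2.70 for Krt19 and -2.82 for Perp, all past the test.

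The plaque protein genes split. Dsp (1435494_s_at), which ties the desmosome to keratin, was 7.05, 7.49 and 7.26 in knockout arrays, against 8.56, 8.57 and 8.49 in wild-type arrays. The groups were 1.01 apart, and the knockout arrays varied more (SD 0.22) than the wild-type arrays (SD 0.04). The change was -1.27 (SE 0.11, limma adjusted p = 0.000492), or 2.42-fold lower (95% interval 2.02 to 2.90). A second Dsp probe set gave -1.22 (limma adjusted p = 0.000138). The remaining one, with means of 3.04 and 3.05 in knockout and wild-type arrays, was under the all-probe-set median in both and gave -0.01 (limma adjusted p = 0.968). Jup (1426873_s_at), shared by desmosomes and adherens junctions, was 7.11, 7.09 and 7.05 in knockout arrays, against 7.40, 7.34 and 7.18 in wild-type arrays. The groups were separate by only 0.07, and the change of -0.22 (95% interval -0.40 to -0.04) did not pass (limma adjusted p = 0.109). It passed in the fit without wild-type replicate 3 (-0.29, limma adjusted p = 0.0439).

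Pkp2 (1449799_s_at), the plakophilin of simple epithelia and heart, was 9.63, 9.57 and 9.55 in knockout arrays, against 9.81, 9.65 and 9.88 in wild-type arrays. The groups were 0.02 apart, and the change of -0.19 (95% interval -0.38 to -0.01) did not pass (limma adjusted p = 0.167). A second bright Pkp2 probe set gave -0.22, with overlapping groups. The remaining 2, under the all-probe-set median in both groups, gave 0.06 and -0.12, and none of the 4 passed. A fall of Pkp2 as large as that of Dsp lay outside these intervals of the 2 bright probe sets.

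Of the desmosomal cadherins, Dsg2 (1439476_at), the desmoglein of simple epithelia, was 9.44, 9.48 and 9.49 in knockout arrays, against 10.05, 10.10 and 9.75 in wild-type arrays. The knockout arrays were all lower, by at least 0.26. The change was -0.50 (SE 0.10, limma adjusted p = 0.0181), or 1.41-fold lower (95% interval 1.20 to 1.66). Of the 6 Dsg2 probe sets, 3 passed, with changes of -0.50, -0.44 and -0.42, and the rest gave -0.31, -0.16 and 0.00. The Dsg2 call ended without any single knockout array (limma adjusted p = 0.0682, 0.0635 and 0.0602 without replicates 1, 2 and 3) and without wild-type replicate 2 (0.0602). Dsc2 (1421156_a_at), its desmocollin partner, was 3.33, 3.21 and 3.56 in knockout arrays, against 3.30, 3.42 and 3.01 in wild-type arrays. Both groups were under the all-probe-set median and overlapped, so this level cannot be separated from background. The changes of the 2 Dsc2 probe sets, 0.12 and -0.40, did not pass (limma adjusted p = 0.631 and 0.273).

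**Figure D2:**
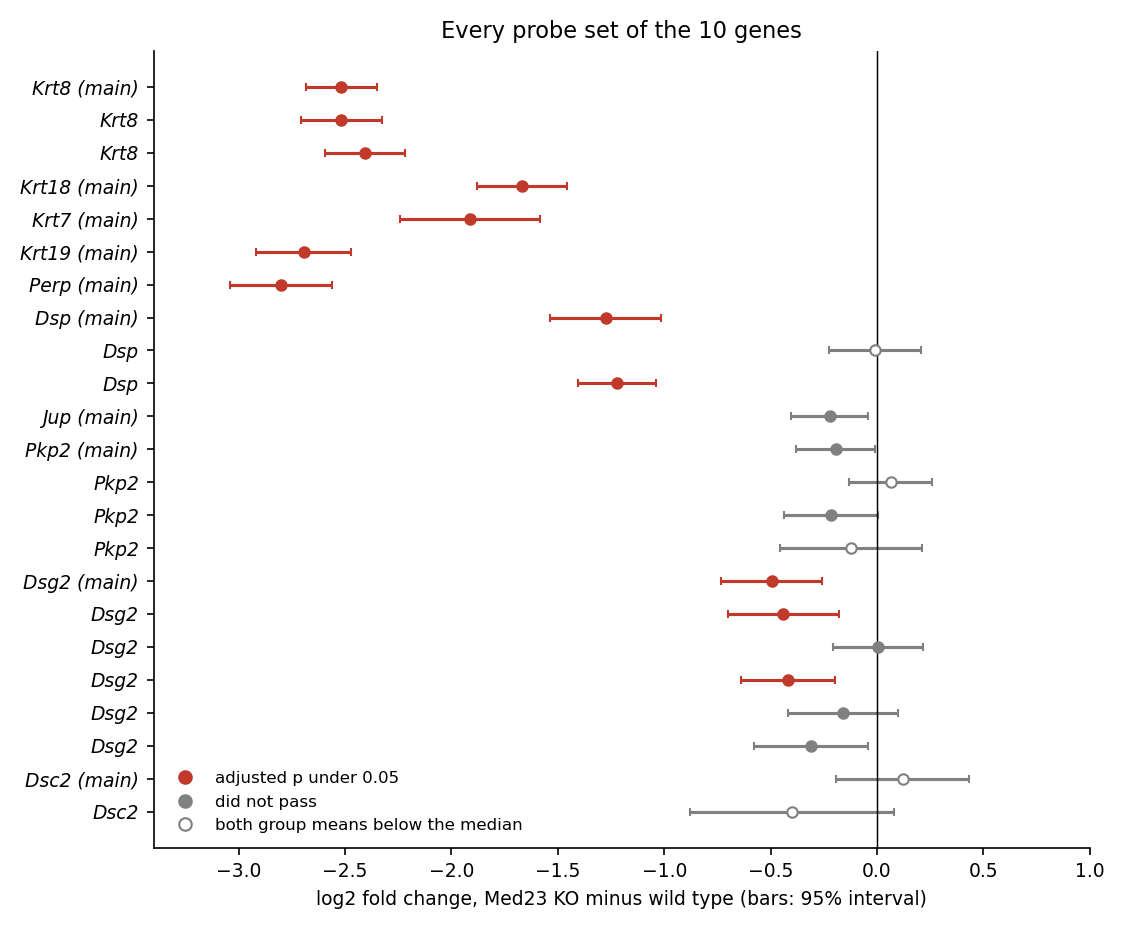
Log2 fold change, knockout minus wild type (horizontal axis), with its 95% interval for all 23 probe sets of the 10 genes (vertical axis); red points passed at an adjusted p under 0.05, grey points did not, and open points had both group means under the all-probe-set median. The 12 red points are those of the keratins, Perp, Dsp and Dsg2, and the 5 open points lie near 0 or have wide intervals.

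Over all 23 probe sets, 12 fell, 0 rose (limma; also 0 at an unadjusted p under 0.05) and 11 did not pass, against 7.43% of all probe sets lower and 6.69% higher. In 5 of the 11 both group means were under the all-probe-set median. The groups of 9 of the 10 genes did not overlap, with knockout below wild type, against 19.5% of all genes. The exception was Dsc2. Jup and Pkp2 were among the 9, so their arrays were separate although the test did not pass.

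Whether partner genes fell to different extents was examined for 5 pairs, on the difference of their main probe sets within each array. With 3 arrays against 3, an exact permutation test cannot go below p = 0.1, and each of the 5 pairs gave that value (two-sided, also 0.1 after Benjamini-Hochberg adjustment over the 5). Krt8 minus Krt18 averaged -0.25 ± 0.07 in knockout arrays and 0.60 ± 0.08 in wild-type arrays (SD, n = 3 each). Krt8 was on average lower by a further 0.85 (log2) than its partner, with a change in the difference of -0.85 (95% interval -1.01 to -0.68). The intervals and SE of the pairs come from a t distribution with pooled variance and not from the permutation test. For Krt7 minus Krt19 the change ran the other way, 0.78 (95% interval 0.14 to 1.42), but the Krt7 knockout mean was under the all-probe-set median, so its fall cannot be ranked against that of Krt19. Krt8 minus Dsp changed by -1.24 (95% interval -1.65 to -0.83) and Krt8 minus Jup by -2.30 (SE 0.11). Dsg2 minus Dsc2 changed by -0.62 (95% interval -0.90 to -0.34), which rests on the background-level values of Dsc2.

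Neighbouring genes were examined next, to see whether the genes around each of the 10 changed with it. For each of the 10 genes, the 10 nearest genes on either side with a mean log2 value above 7 were taken in the RefSeq gene order. None of the 10 genes was counted as a neighbour of another. Krt8 (-2.52) and Krt18 (-1.67) are therefore absent from the chromosome 15 neighbours below. The median log2 fold change of these neighbours was -0.02 for Krt7, Krt8 and Krt18, which share the same 20, 0.01 for Krt19 and for Perp, 0.06 for Dsp, 0.02 for Jup, 0.05 for Pkp2 and 0.14 for Dsg2 and Dsc2. The keratin genes on chromosome 15 were -1.65 to -2.50 relative to the median of neighbours among which 1 fell and 1 rose. The lowest of those 20 neighbours was Nr4a1 at -0.46. Perp and Med23 both lie on chromosome 10, with 11 genes of that brightness between them. Those 11 had a median of -0.06, and 2 of them fell, the lower being Ccn2 at -1.38. Krt19 and Jup lie in the same part of chromosome 11, where 5 of 20 neighbours fell and 2 rose, down to P3h4 at -0.73. The keratin genes Krt42 (-0.60) and Krt10 (0.58) are among these neighbours. Krt19 itself (-2.69) and any genes there with a mean log2 value of 7 or lower are not counted in this range. The type I keratin gene Krt17 (-2.31) is therefore not counted, with means of 5.33 in knockout and 7.64 in wild-type arrays. The 20 neighbours of Dsg2 and Dsc2 on chromosome 18 were more spread, from -1.40 for Esco1 to 0.92, with 3 lower and 7 higher. Beside these neighbour counts, 10.4% of all genes, at any level, were lower and 8.53% higher.

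**Figure D3:**
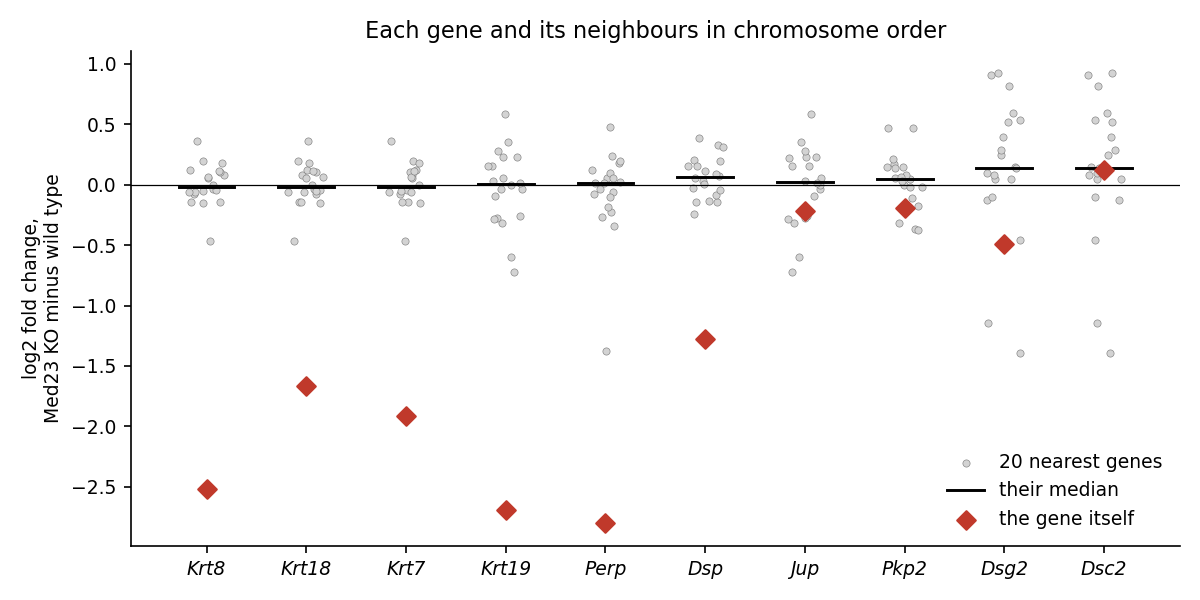
Log2 fold change, knockout minus wild type (vertical axis), of each of the 10 genes (red diamonds) and of its 20 nearest genes with a mean log2 value above 7 (grey points, black bar at their median). None of the 10 genes is counted among the grey points. The neighbour medians lie between -0.02 and 0.14, and the diamonds of the keratins, Perp and Dsp lie far below them.

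Most of the other keratin and desmosomal genes had low values on these arrays. Of 20 other keratin genes, 4 fell, 1 rose and 15 did not pass, with a median of -0.07, and 15 had both group means under the all-probe-set median. The share that fell was 20%, beside 10.4% of all genes lower and 8.53% higher. Krt17, a type I keratin of basal and injured epithelium, was 5.53, 5.33 and 5.13 in knockout arrays, against 7.65, 7.59 and 7.69 in wild-type arrays. Its main probe set changed within the range of the simple keratins, by -2.31 (SE 0.11, limma adjusted p = 3.64e-05), whereas its second probe set did not pass (-0.19). Krt42, another type I keratin, fell (-0.60, limma adjusted p = 0.00358), and its second probe set also fell (-0.67). Krt10, the type I keratin of the upper epidermal layers, was 8.19, 8.24 and 8.25 in knockout arrays, against 7.55, 7.71 and 7.68 in wild-type arrays. It rose by 0.58 (SE 0.07, limma adjusted p = 0.00184). The other 2 that fell, Krt14 and Krt16 (-0.43 and -0.42), were under the all-probe-set median in both groups. Type I keratins are close in sequence, and what part of these signals is shared between them was not tested.

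Of 9 other measured desmosomal and envelope genes, 1 fell and 1 rose, with a median of -0.14. The 11.1% that fell was close to the 10.4% of all genes, of which 8.53% rose. The plakophilin gene Pkp3, found in most desmosomes, was 6.69, 6.68 and 6.57 in knockout arrays, against 7.77, 7.59 and 7.54 in wild-type arrays. It fell by 0.98 on the log2 scale (SE 0.08, limma adjusted p = 0.000422), between Dsp and Dsg2 in size, and its second probe set also fell. Its relative Pkp4, which sits largely at adherens junctions, rose by 0.37 (limma adjusted p = 0.00898), with both probe sets higher. The cadherins of stratified epithelia Dsg1a, Dsg1b, Dsc1 and Dsc3 and the plakophilin gene Pkp1 were under the all-probe-set median in both groups.

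Of 15 genes of keratin filament linkers and hemidesmosomes, 6 fell and 1 rose (median -0.12), beside 10.4% of all genes lower and 8.53% higher. Sfn, a 14-3-3 protein gene of epithelial cells whose product binds keratin, was 6.30, 6.35 and 6.26 in knockout arrays, against 8.42, 8.30 and 8.39 in wild-type arrays. The change was -2.07 (SE 0.07, limma adjusted p = 1.30e-05), close to that of the simple keratins. The hemidesmosomal collagen gene Col17a1 fell (-1.11, limma adjusted p = 0.00129), to a knockout mean of 4.09, under the all-probe-set median, and so did the keratin-binding epiplakin gene Eppk1 (-0.81, 0.000748). Of 10 adherens junction genes, 0 fell and 1 rose (median 0.02), beside 10.4% of all genes lower and 8.53% higher. At an unadjusted p under 0.05 in limma, Cdh2 and Ctnnd1 were lower (-0.15 and -0.20) and Nectin3 higher. E-cadherin (Cdh1) averaged 10.90 ± 0.10 in knockout arrays and 10.80 ± 0.04 in wild-type arrays (SD, n = 3 each), a change of 0.09 (95% interval -0.08 to 0.26). The nectin gene Nectin3 rose by 0.45 (limma adjusted p = 0.028), with 2 of its 6 probe sets past the test, a call that ended without any single knockout array or wild-type replicate 2 (limma adjusted p up to 0.0994) and with a replicate block (0.0744).

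Of 22 measured transcription factors known for epithelial genes, 12 fell and 0 rose in limma, beside 10.4% of all genes lower and 8.53% higher. Their median was -0.38, and 0 were higher at an unadjusted p under 0.05. Both group means of 5 of them were under the all-probe-set median. The AP-1 subunit gene Jun was 5.10, 5.04 and 4.65 in knockout arrays, against 6.92, 6.93 and 7.11 in wild-type arrays, a change of -2.06 (SE 0.13, limma adjusted p = 0.000129). Its second probe set also fell, but by less (-0.52). The epithelial zinc finger gene Ovol2 fell by 1.53 and the epithelial ETS factor gene Elf3 by 1.18 on the log2 scale (limma adjusted p = 0.00103 and 0.00171). All 3 grainyhead-like genes fell too: Grhl2, a regulator of epithelial junction genes, by 0.97, Grhl1 by 0.75 and Grhl3 by 0.33. Of 4 Grhl2 probe sets, 1 passed. The rest of the 12 were the AP-1 genes Junb, Fos and Fosl1, and Klf4, Klf5 and Ets2, which are not confined to epithelial cells. Tfap2a, Tfap2c, Gata3, Cdx2, Elf5, Ehf and Ovol1 did not pass. Trp63, the p53 relative that activates Perp in stratified epithelium, was under the all-probe-set median in both groups (means 3.54 and 3.47 in knockout and wild-type arrays). AP-1 and grainyhead letters were absent from the 5 promoter windows searched, and only 7.81% and 2.09% of all windows held them. Windows of Krt19, Perp, Pkp2, Dsg2 and Dsc2 were not searched, nor was sequence outside the windows. Whether any of these factors acts on the 10 genes was not tested.

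**Figure D4:**
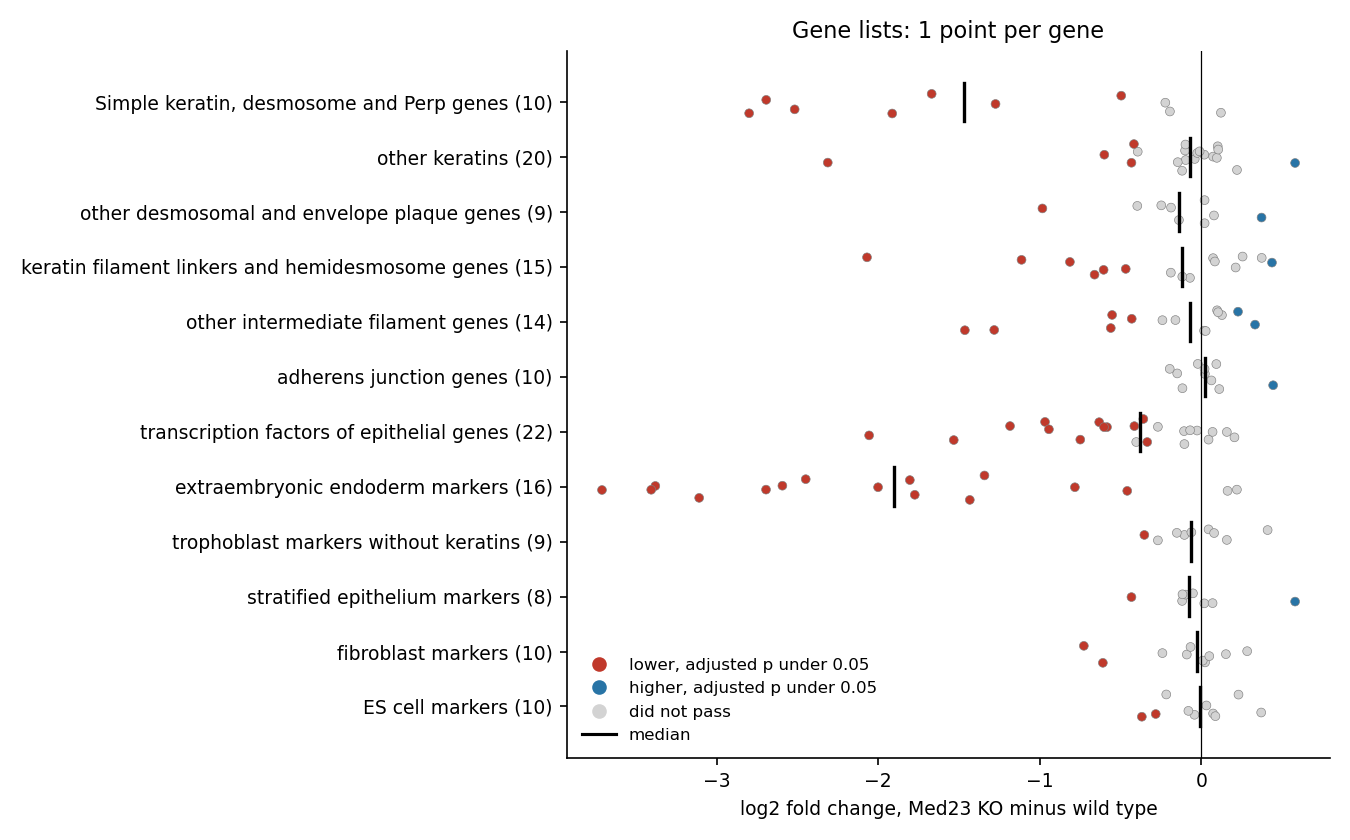
Log2 fold change, knockout minus wild type (horizontal axis), of every measured gene of each list (vertical axis, number of genes in brackets); red points fell and blue points rose at an adjusted p under 0.05, grey points did not pass, and black bars are medians. The median is -1.47 for the keratin, desmosome and Perp genes, -1.90 for extraembryonic endoderm markers and -0.38 for the epithelial transcription factors, and between -0.14 and 0.02 in the other lists.

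Markers of other cells that an ES culture can hold were set beside the keratins. Over all genes, 10.4% were lower and 8.53% higher. Of 16 extraembryonic endoderm markers, 14 fell and 0 rose in limma (median -1.90, with 0 higher at an unadjusted p under 0.05), among them the collagen genes Col4a2 (-3.71) and Col4a1 (-3.41) and the endocytic adaptor gene Dab2 (-3.38). All 4 Dab2 probe sets fell, the least by -0.45. Their summed level on the linear scale was 1999 to 2147 in knockout arrays and 7134 to 8685 in wild-type arrays, while that of the 10 keratin, desmosome and Perp genes was 2495 to 2545 and 5681 to 6156. Both sums were thus lower in every knockout array. The endoderm factor genes Gata6, Sox17 and Sox7 had means of 4.92, 4.38 and 4.55 in knockout arrays, against 7.52, 6.83 and 7.25 in wild-type arrays, and Afp and Ttr were under the all-probe-set median in both groups. The part of these markers in the fall of the keratins was not tested.

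Trophoblast is the other early embryonic site of Krt8, Krt18 and Krt7. Of 9 measured trophoblast markers other than keratins, 1 fell and 0 rose in limma (median -0.06), and 1, Eomes, was higher at an unadjusted p under 0.05. The share that fell, 11.1%, was close to the 10.4% of all genes. Their summed level was 959 to 1034 in knockout arrays and 942 to 1030 in wild-type arrays, ranges that overlapped. Tfap2c and Plet1 supplied most of it, and the other 7 genes summed to 312 to 336 in knockout arrays and 323 to 356 in wild-type arrays. The trophoblast factor genes Cdx2 and Elf5 were under the all-probe-set median in both groups. The gene that fell, Ascl2, changed by -0.35 (limma adjusted p = 0.0206), a call that ended with a replicate block (0.0505) and without knockout replicate 1, knockout replicate 2 or wild-type replicate 3 (up to 0.0858). Of 8 markers of stratified epithelium, 1 fell and 1 rose (Krt14 and Krt10, given above), and their summed level was 452 to 460 in knockout arrays and 360 to 374 in wild-type arrays. Krt10 supplied most of that sum, and the other 7 summed to 155 to 160 in knockout arrays and 164 to 173 in wild-type arrays, the opposite direction. Of 10 fibroblast markers, which would mark feeder cells, 2 fell and 0 rose in limma (0 higher at an unadjusted p under 0.05), namely Thy1 (-0.73) and Twist1 (-0.61), and 8 were under the all-probe-set median in both groups. The share that fell was 20%, beside 10.4% of all genes lower and 8.53% higher. Twist1 had a knockout mean of 4.44, also under that median, and a wild-type mean of 5.05. The summed fibroblast level was 138 to 151 in knockout arrays and 169 to 194 in wild-type arrays. The Thy1 call ended without knockout replicate 1 or 2 (limma adjusted p = 0.0552 and 0.0672).

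The genes whose values over the 6 arrays most resembled those of Krt8, Krt18 and Perp were found by the smallest root mean square difference of mean-centred log2 values, among 11191 other genes with a mean above the all-probe-set median. Because the groups differ so much, this measure mainly finds genes with a fall of the same size. For Krt8 these were Amot (0.08), the small heat shock protein gene Cryab (0.10), Krt19 (0.10), the Nodal antagonist gene Lefty1 (0.12) and the homeodomain-only protein gene Hopx (0.13). Other probe sets of Amot (2 of 3) and Cryab (1 of 3) did not pass the test. For Perp, Krt19 came first (0.09), then Hopx (0.15), Krt8 (0.16), Spata5l1 (0.16) and Cryab (0.18). For Krt18 they were the ribonuclease gene Rnase4 (0.06), the tight junction claudin genes Cldn6 (0.06) and Cldn7 (0.09), the ceramide synthase gene Cers4 (0.07) and the BMP target Id1 (0.09). Krt8 and Krt19 were thus among the 5 nearest genes of Perp, and Krt19 was among those of Krt8, while none of the other 9 genes was among the 5 nearest of Krt18.

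The labels do not give the origin of the cultures of each genotype, so loss of Med23 and any other difference between the knockout and wild-type lines cannot be told apart as sources of these changes.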

How the data were processed

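Per the labels' protocols, Trizol-extracted RNA was labelled as biotinylated cRNA and hybridised to Affymetrix arrays. The deposited values of the 6 arrays are on a log2 scale, a base inferred from their range. RMA and MAS5 are both named, with no role or version, per the submitters' processing notes. Values were used as deposited, with 0 columns of other samples. The 64 array controls among 45101 probe sets were dropped. Gene names came from the platform annotation, 34741 of 34945 single-symbol probe sets being matched by Entrez identifier to RefSeq (GRCm38.p6). No build is named with the values.

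Groups and replicate numbers came from the titles. Nothing says that cultures were derived separately, so p-values measure the spread between these samples. Knockout minus wild type was tested for each probe set by lmFit and eBayes of limma 3.58.1, run in R 4.3.3 (two-sided, 4 residual and 3.08 prior degrees of freedom), with Benjamini-Hochberg adjustment over 45037 probe sets and a threshold of 0.05. Pairs of genes were compared by exact permutation, and their intervals come from a t distribution with pooled variance. No detection calls were used, so values below the median of all probe sets (4.62) cannot be separated from background.

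The 10 genes and the 11 lists beside them were chosen with earlier results of these data known. The text names the 10 genes, Med23, the up to 3 most changed genes of each list that passed the threshold (the 2 of lowest p where none passed), and the 5 genes most like Krt8, Krt18 and Perp. Further list members, the lowest neighbours and the cell type factors given with their levels were chosen after their values were seen. Of 138 list genes, 133 were measured; the rest were not analysed here. Alternatives were quantile normalization, median centring, a filter on low values, an intensity trend, array weights, a replicate block, the mean of a gene's probe sets, 5 neighbours per side and leaving out each array.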

Additional observations from a re-analysis of the deposited data

How the results depend on the processing

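The falls of Krt7, Krt8, Krt18, Krt19, Perp and Dsp passed the test in all 12 alternative fits across probe sets, with changes between -2.88 and -1.17 and an adjusted p of at most 0.00452 (limma). Between 6 and 8 of the 10 genes were lower in every setting, including the mean of a gene's probe sets. Leaving out 1 array gave Dsg2 between -0.60 and -0.43 (limma adjusted p 0.00397 to 0.0682) and Jup between -0.29 and -0.18 (0.0439 to 0.273). Probe sets near 0 changed sign in these fits: one of Dsp (-0.060 to 0.076), one of Pkp2 (-0.011 to 0.13) and one of Dsg2 (-0.072 to 0.061). The count of higher probe sets, 3013, was 1497 to 3494 when 1 array was left out, and 1497 to 1826 without any single knockout array or wild-type replicate 2. The count of list genes that rose, 6, was 3 to 10, at 3 without those same arrays and at 10 without wild-type replicate 1. With a replicate block these were 1915 and 3, and Dsg2 kept its change of -0.50 (limma adjusted p = 0.0408). Same-numbered arrays did not deviate from their group means together (correlations -0.25, -0.16 and 0.02), so the numbers were not taken as pairs. The directions of the 5 pair differences held in every fit run. The cause of these shifts was not tested, beyond fewer arrays in the fits that left one out.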

Other observations

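Intermediate filament genes outside the keratins did not move one way. Of 14 measured, 5 fell and 2 rose at an adjusted p under 0.05 (limma), with a median log2 fold change of -0.07, beside 10.4% of all genes lower and 8.53% higher. Nefm, a neurofilament subunit gene, changed by -1.46 on the log2 scale (SE 0.12, limma adjusted p = 0.000338), with a knockout mean of 4.40, under the all-probe-set median. The nuclear lamin gene Lmna, which rises as pluripotent cells differentiate, changed by -1.28 (SE 0.08, limma adjusted p = 0.000151), with 4 of its 5 probe sets lower. The neural progenitor filament gene Nes changed by -0.56 (limma adjusted p = 0.00955), with 2 of 3 probe sets lower. Vim, the filament gene of mesenchymal and cultured cells, averaged 10.79 ± 0.01 in knockout arrays and 10.56 ± 0.05 in wild-type arrays (SD, n = 3 each), a rise of 0.23 (limma adjusted p = 0.0467), and the neuronal gene Ina rose by 0.33 (0.0173). When 1 array was left out, 4 to 5 of the 14 fell and 0 to 2 rose.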
